A study of Homo sapiens with 3 samples.

Results

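ARID1B peaks at the U3 and U8 small nucleolar RNA genes of human chromosome 17 were taken from 2 deposited peak lists, 1 for each replicate of a chromatin immunoprecipitation sequencing (ChIP-seq) experiment. The peaks were all those between 18.9 and 19.3 Mb of chromosome 17, the stretch that holds GRAP, GRAPL and 5 U3 genes, together with peaks within 1000 bp of SNORD118, the U8 gene. This rule gave 6 of 1792 peaks in replicate 1 and 6 of 1820 in replicate 2, and the named genes were SNORD3A, SNORD3B-1, SNORD3B-2, SNORD3C, SNORD3D, SNORD118, GRAP and GRAPL. The members were chosen by the measured peak positions, since the stretch was singled out with them known, so the presence of peaks in it is a description and was not tested.

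The cells were HEK293FRT, an established cell line derived from HEK293 (human embryonic kidney) that carries a site for targeted integration. Both replicates and the input (3 samples in all) were labelled with no genotype and no treatment, and no sample lacking ARID1B was among them. The 2 ARID1B replicates each had a list, and no values of the input were read here. Whether separate cultures stand behind the replicates is not in the labels, so their spread may be technical. The lists hold no read counts, so depth is unknown, and the line's identity cannot be checked from them. All positions are on hg38.

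ARID1B belongs to the BAF form of the SWI/SNF chromatin remodellers, which slide and evict nucleosomes, and binds DNA through its ARID domain. Small nucleolar RNAs of the box C/D class guide or assist the processing of ribosomal RNA. Most are cut from introns of host genes, whereas U3, U8 and U13 have their own RNA polymerase II promoters of the type used by spliceosomal small nuclear RNA (snRNA) genes. U3 is needed for the cleavages that release the small-subunit ribosomal RNA, and U8 for the maturation of the large-subunit RNAs. U3 genes are present in several near-identical copies, so short reads from them often cannot be assigned to 1 copy. GRAP encodes an adaptor protein related to GRB2 that couples receptors to Ras signalling, and GRAPL is its duplicated neighbour.

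The copies of this stretch are visible in the reference sequence itself. The sequence around an annotated transcript start of GRAP is shown because the same bases stand at the start of GRAPL on the opposite strand. This transcript start lies inside the annotated GRAP gene. The sequence is in capitals from the start onwards. It covers 250 bases before and 50 after the start and was taken from RefSeq (GRCh38.p14), at chr17:19046908-19047207 on the minus strand for GRAP and chr17:19127339-19127638 on the plus strand for GRAPL.
GRAP and GRAPL: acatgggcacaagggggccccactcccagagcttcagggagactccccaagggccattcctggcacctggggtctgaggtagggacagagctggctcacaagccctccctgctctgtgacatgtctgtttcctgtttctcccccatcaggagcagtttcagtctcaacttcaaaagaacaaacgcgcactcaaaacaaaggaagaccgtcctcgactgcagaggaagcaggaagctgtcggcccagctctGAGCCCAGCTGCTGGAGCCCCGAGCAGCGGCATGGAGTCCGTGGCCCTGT
All 300 of 300 bases were identical between both genes. A second repeated unit surrounds the long non-coding RNA genes GRAPL-AS1 (chr17:19162575-19162874, minus strand) and LOC388436 (chr17:19215380-19215679, plus strand), whose start sequences were also identical over 300 of 300 bases.
GRAPL-AS1 and LOC388436: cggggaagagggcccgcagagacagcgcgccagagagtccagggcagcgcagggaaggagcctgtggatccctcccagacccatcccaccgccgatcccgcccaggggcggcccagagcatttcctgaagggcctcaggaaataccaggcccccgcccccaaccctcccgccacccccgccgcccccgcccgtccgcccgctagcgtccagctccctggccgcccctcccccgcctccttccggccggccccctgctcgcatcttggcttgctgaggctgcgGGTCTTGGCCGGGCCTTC
The lower-case part, 282 bases, was found unchanged at the start of LOC102724624 (chr17:19089193-19089492, plus strand). The 300-base window of that gene ends with these bases, so the 18 capitals fall beyond it and could not be compared. None of these sequences lay in a peak. The nearest shared region was 14.7 kb from the GRAP start sequence, 14.8 kb from that of GRAPL and 25.1 kb from that of GRAPL-AS1.

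Each of the 5 U3 genes had exactly 1 peak in each replicate, and no other gene of the 400 kb stretch had one. The peaks of both replicates overlapped at every copy, so that 5 shared regions spanned 128 kb, chr17:19061942-19190178. Peaks that overlap by at least 1 bp count here as 1 shared region. The stretch holds 22 annotated genes, of which 5, the U3 genes, had a shared region within 1000 bp of an end and 17 had none. Across the whole annotation 0.638% of 58961 genes had such a region, and because the stretch was chosen for its peaks nothing is read from the contrast. The map of peaks and genes shows the regions on the small RNA genes and gaps of 48.0 and 75.4 kb between the outer pairs and SNORD3D.

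**Figure D1:**
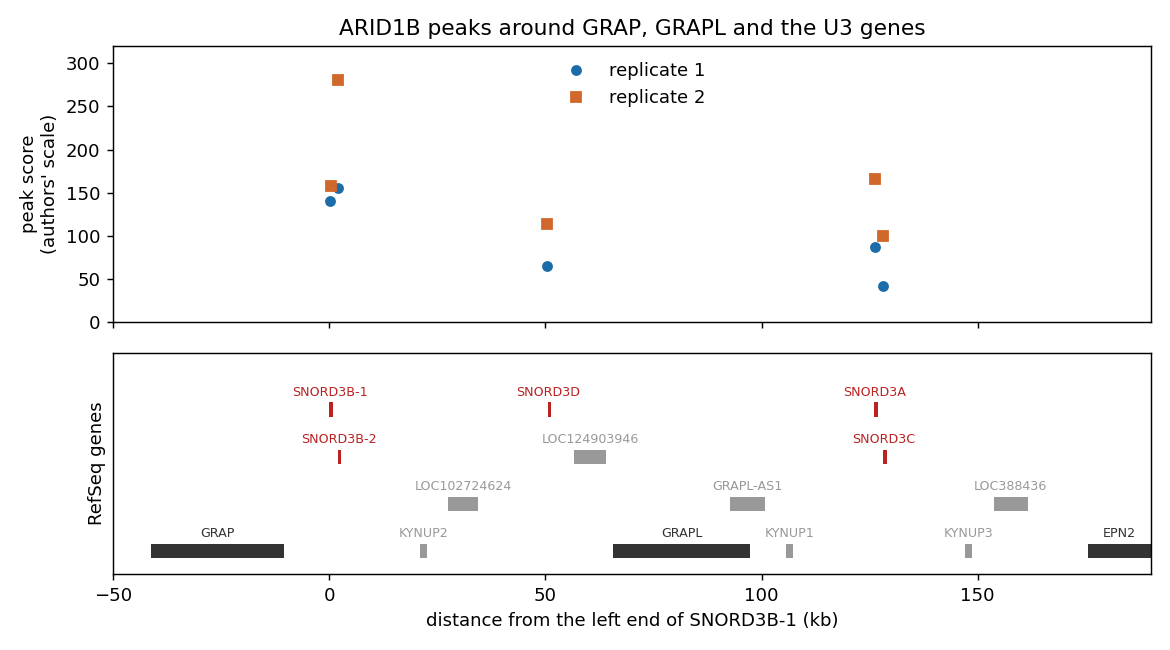
ARID1B peaks around GRAP, GRAPL and the U3 genes. Top, the score of each peak (y axis, the authors' scale) at its centre, with replicate 1 as circles and replicate 2 as squares; bottom, RefSeq genes of the same stretch (red, U3 genes; black, protein-coding genes, EPN2 drawn up to the right edge; grey, other genes). The x axis is the distance from the left end of SNORD3B-1 in kb. Every peak stands at a U3 gene, and none at GRAP or GRAPL.

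The U3 genes are arranged as 2 facing pairs and a single copy. SNORD3B-1 (chr17:19061912-19062128) and SNORD3B-2 (chr17:19063920-19064136) are 1791 bp apart, and SNORD3A (chr17:19188016-19188232) and SNORD3C (chr17:19190029-19190245) are 1796 bp apart. SNORD3D (chr17:19112420-19112636) stands alone between them, and all 5 genes are 217 bp long. The 3 copies of a KYNU pseudogene accompany the pairs: KYNUP2 lies 18.7 kb to the right of SNORD3B-2, while KYNUP1 and KYNUP3 lie 18785 bp to the left of SNORD3A and 18785 bp to the right of SNORD3C. The regions of the left pair were 977 bp apart and those of the right pair 1145 bp. Among all 1313 shared regions, 5.64% had another within 2000 bp, a distance chosen after the positions were seen.

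SNORD3B-2 had the highest scores of the U3 copies, 156 in replicate 1 and 281 in replicate 2, at chr17:19063564-19064101 and chr17:19063534-19064129. The score is the authors' own value for a peak, on a scale that they did not state here. In the lists it ranked 298 of 1792 and 99 of 1820. SNORD3B-1, its facing partner, scored 140 and 158 (chr17:19061942-19062337 and chr17:19061948-19062556), with ranks of 348 and 313. SNORD3A scored 87 and 166 (chr17:19187989-19188486 and chr17:19187961-19188599), with ranks of 711 and 291. The left pair therefore outscored SNORD3A in replicate 1, while in replicate 2 SNORD3A stood between its members.

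SNORD3D, the single copy, scored 65 and 114 (chr17:19112129-19112492 and chr17:19112108-19112528), with ranks of 1007 and 493. SNORD3C had the lowest scores of the copies, 42 and 100 (chr17:19189746-19190102 and chr17:19189745-19190178), with ranks of 1473 and 601. In both lists SNORD3B-2 came first and SNORD3D and SNORD3C came last, whereas SNORD3B-1 and SNORD3A changed places. The highest score was 3.71 times the lowest in replicate 1 and 2.81 times in replicate 2. In the replicate 1 order, the ranges over both replicates overlapped between all neighbours. In the replicate 2 order SNORD3B-1 stood next to SNORD3D, and their ranges did not overlap. SNORD3D and SNORD3C lay below both genes of the left pair in each list. Whether reads that match several copies were placed at random is not known, and the part of read placement in the order of copies was not tested.

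Against their lists the U3 peaks ranged from low to high, from the 17.7 percentile (SNORD3C) to the 83.3 percentile (SNORD3B-2) in replicate 1 and from the 66.6 to the 94.6 percentile, at the same genes, in replicate 2. Replicate 1 put 3 of the 5 at or above its median score of 74, leaving SNORD3D and SNORD3C below it, and replicate 2 put all 5 above its median of 75. When only peaks that reached their list's median were kept, 3 shared regions remained in the stretch, those of SNORD3B-1, SNORD3B-2 and SNORD3A. The highest scores of the lists, at other loci, were 1537 and 1642.

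All 5 U3 copies scored higher in replicate 2. The ratio of replicate 2 to replicate 1 was 1.13 for SNORD3B-1, 1.75 for SNORD3D, 1.80 for SNORD3B-2, 1.91 for SNORD3A and 2.38 for SNORD3C. The median of these was 1.80, against a median of 1.02 over all 1305 peaks that paired one to one between the lists, of which 50.8% scored higher in replicate 2. On the log2 scale the middle 90% of all pairs ran from -1.17 to 1.26, and the 5 copies, from 0.17 to 1.25, all lay inside it. The copies may share reads and are not independent, and whether the lists' scores are on a common scale is not known, so the shift was not tested. At U8 the ratio was 0.953.

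**Figure D2:**
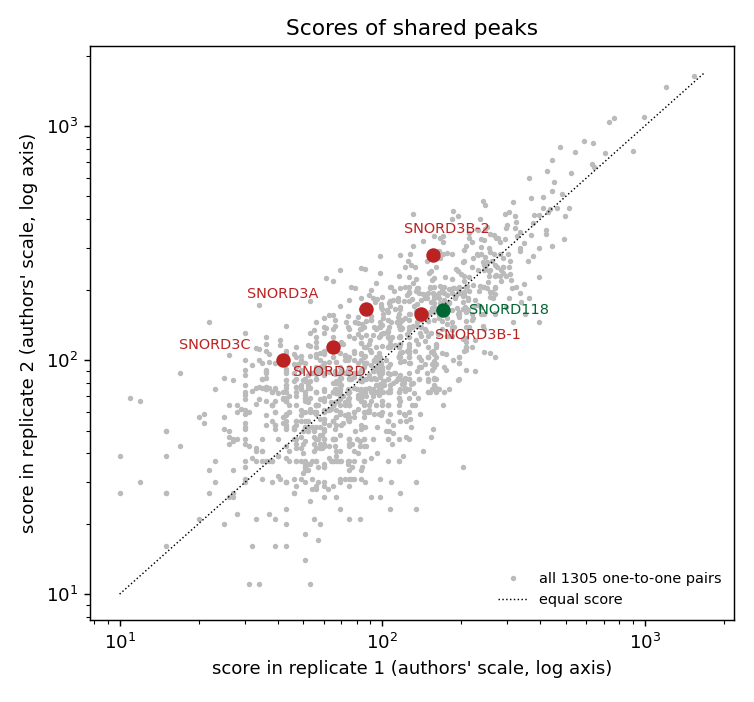
Scores of shared peaks in replicate 1 (x axis) and replicate 2 (y axis), both on the authors' scale and on log axes. Grey points are the 1305 one-to-one pairs, red points the 5 U3 copies, the green point SNORD118, and the dotted line equal scores. The U3 copies lie above the line and inside the cloud, and SNORD118 lies beside the line.

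U8 had the highest score of these genes in replicate 1, and in replicate 2 it came after SNORD3B-2 and SNORD3A. The U8 gene SNORD118 (chr17:8173452-8173588, 137 bp) lies inside TMEM107, a gene for a protein of the ciliary transition zone. Variants in SNORD118 are known to cause a leukoencephalopathy with calcifications and cysts. Its peaks scored 171 and 163, at chr17:8172989-8173628 and chr17:8172965-8173425, with ranks of 248 of 1792 and 300 of 1820. The replicate 1 peak covered the whole RNA gene, and the replicate 2 peak left 26 bp between its end and the gene. The replicates therefore differed on whether the gene itself was covered. They shared 437 bp, which is 68.3% of the replicate 1 peak and 94.8% of the replicate 2 peak. The region lay 508 bp from the 3' end of TMEM107 and 482 bp from the annotated start of LOC105371520, a long non-coding RNA gene, and the peaks cannot be assigned to 1 of these genes by position alone.

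Peak positions at the U3 copies matched between the replicates about as closely as those of other shared peaks. All 5 stretch peaks of each replicate overlapped a peak of the other (100%, exact Clopper-Pearson 95% interval from 47.8%, counting error only), against 73.5% of all replicate 1 peaks and 72.4% of all replicate 2 peaks. The interval treats the copies as independent, though they may share reads. The stretch was also chosen with its peaks known, so nothing is read from this contrast. At 4 copies the replicate 1 peak lay wholly inside the replicate 2 peak, and at SNORD3B-1 98.5% of it did. The overlap as a share of the joint length was 90.3% at SNORD3B-2, 86.5% at SNORD3D, 82.3% at SNORD3C, 77.9% at SNORD3A and 63.4% at SNORD3B-1, and 65.8% at SNORD118. The median over all pairs was 79.7%, with the middle 90% from 53.0 to 95.4%. The peaks of the stretch were wider than the list medians in both replicates, with medians of 396 and 596 bp against 290 and 300 bp over the lists.

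Measured from the 5' end of each RNA, every peak reached beyond the 3' end of the gene, while cover of the gene itself differed. At SNORD3B-1, SNORD3B-2 and SNORD3A the peaks covered 83.4 to 100% of the gene. At SNORD3D and SNORD3C they covered 33.6 to 69.1%, its 3' part. At U8 the replicate 1 peak covered the whole gene and the replicate 2 peak none of it. How reads matching several U3 copies were placed is not known, and the part of read placement in peak positions was not tested. The direction of transcription of these RNA genes was taken from general knowledge and not from the files: SNORD3B-1 and SNORD3A run towards rising coordinates, and the other copies and SNORD118 towards falling coordinates, so that the genes of a pair face each other. Counting from 1 at the first base of the RNA, the replicate 1 peak of SNORD3D ran from base 145 to 508 and that of SNORD3C from 144 to 500. The replicate 2 peaks of these genes ran from base 109 to 529 and from 68 to 501. The peaks of SNORD3B-2 began at bases 36 and 8 and ended at 573 and 603, and those of SNORD3B-1 began at bases 31 and 37 and ended at 426 and 645.

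SNORD3A was the copy whose peaks reached furthest towards the promoter. They began 27 and 55 bp before the gene and ended at bases 471 and 584, and at the 4 other copies no peak reached the 5' end. All 10 U3 peaks extended past the 3' end, by 209 to 428 bp, and all 10 had their centre beyond it, at bases 222.5 to 341.0 (median 305.0, SD 41.1 over 10 peaks of 5 copies). The copies may share reads and the replicates call the same sites, so these 10 peaks are not independent and the SD is descriptive. One stretch, from base 145 to 426, was common to all 10 peaks; 73 of its 282 bases lie in the gene and 209 beyond. The U8 peaks were also centred beyond the 3' end, with centres at bases 280.5 and 394.0 of a frame in which the gene ends at base 137. The part of the U8 peaks common to both replicates, bases 164 to 600, lay wholly beyond the gene.

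**Figure D3:**
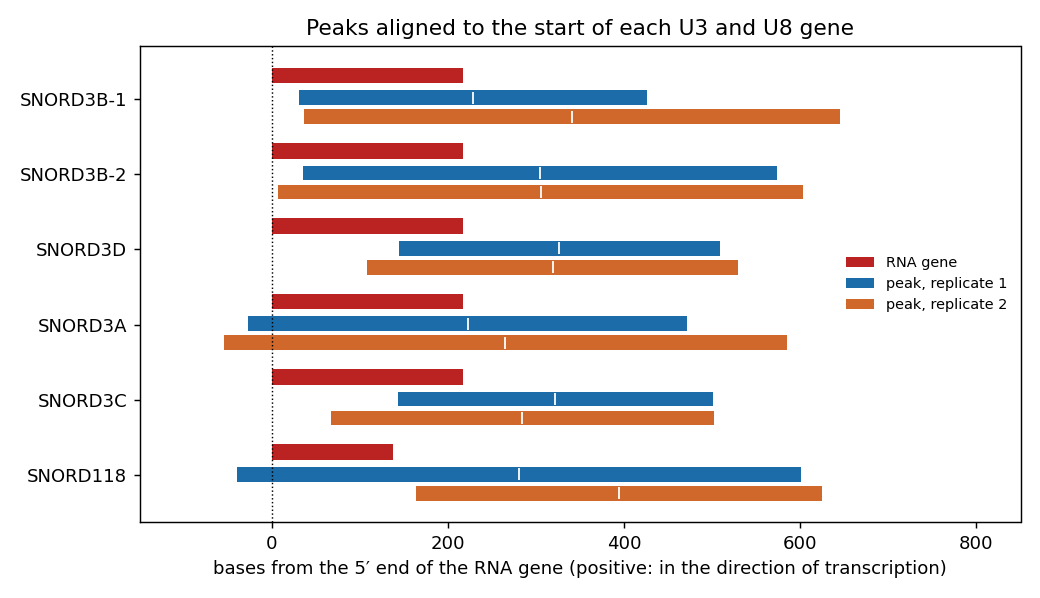
Peaks aligned to the 5' end of each U3 and U8 gene. The x axis gives bases from the first base of the RNA, positive in the direction of transcription; red bars are the RNA genes, blue and orange bars the peaks of replicates 1 and 2, white ticks the peak centres, and the dotted line the 5' end. All 12 centres lie beyond the 3' end of the gene, and 3 of the peaks, both of SNORD3A and that of SNORD118 in replicate 1, cross the dotted line.

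Protein-coding genes give a background for this layout. Of 178 protein-coding genes with a shared region within 1000 bp of an end and with 1 strand in the reference promoter table, 24.2% had the centre of the region nearer to the 3' end than to the 5' end. This share describes long genes, where both ends are far apart, and was not tested against the RNA genes. Without regard to strand, the centre of the shared region was 156 to 229 bp from the centre of the gene at the 5 U3 copies (median 196.5 bp). At the 18 snRNA genes with a shared region it was 59.5 to 249 bp away (median 150.5 bp), and at 16 of these 18 it lay outside the gene, as it did at all 5 U3 genes.

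GRAP and GRAPL, the protein-coding genes that give the cluster its name, had no peak at either end in either replicate. GRAP (chr17:19020656-19051373) was 10.6 kb from the nearest shared region, that of SNORD3B-1. GRAPL (chr17:19127589-19159187) was 15.1 kb from that of SNORD3D. No peak lay inside either gene. LOC124903946, a long non-coding RNA gene beside GRAPL, was closest of the 17 genes without a region, at 6075 bp from that of SNORD3D. The peaks just outside the stretch were far away: on the left a peak 927 kb from its border with scores of 443 and 715, at DRC3 and TOM1L2, and on the right a peak 1637 kb away in replicate 1 (score 94) and one 8245 kb away in replicate 2 (score 98). The peak next to SNORD118 lay 16.7 kb from it, near VAMP2, with scores of 100 and 115.

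Other U3 genes and pseudogenes of the annotation had no peak, and at the shares given below so few genes would seldom have one. The table lists 10 further U3 symbols (SNORD3E to SNORD3K, SNORD3P1, SNORD3P3 and SNORD3P4) on 8 chromosomes, with lengths of 71 to 216 bp. None had a peak of either replicate within 1000 bp of an end, where 0.697% of all genes had a peak of replicate 1 and 1.01% one of replicate 2, and the nearest, at SNORD3I, was 186 kb away. Of these, 4 were within 10 bp of the length of the chromosome 17 copies (SNORD3E, SNORD3G, SNORD3H and SNORD3P1), and their nearest peaks were 222 to 1714 kb away. SNORD13, the gene of U13, which also has its own promoter, had its nearest peak 3560 kb away.

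Over all 1193 annotated small nucleolar RNA genes, 9 had a shared region within 1000 bp of an end (0.754%, exact 95% interval 0.346 to 1.43%), close to the 0.638% of all genes. Of these, 6 were the U3 copies and U8, and their regions overlapped the RNA gene, at U8 through the replicate 1 peak alone. These 6 were chosen with their peaks known, so leaving them out lowers the share by that choice alone. The other 1187 genes had 3 (0.253%, 0.0522 to 0.737%, an interval that includes the 0.638% of all genes), and these regions lay 601 to 938 bp from the gene, with no overlap. They were LOC124900554 (scores 148 and 88), SNORD59A (129 and 254) and SNORA10 (28 and 22). Within 500 bp of an end the count was 0 of 1187. Counting the 5 near-identical U3 copies as 1 gene, 5 small nucleolar RNA genes had a region. In the class of snRNA genes 12.1% had one (18 of 149, 7.32 to 18.4%), a class whose members include copies of 1 sequence as well.

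**Figure D4:**
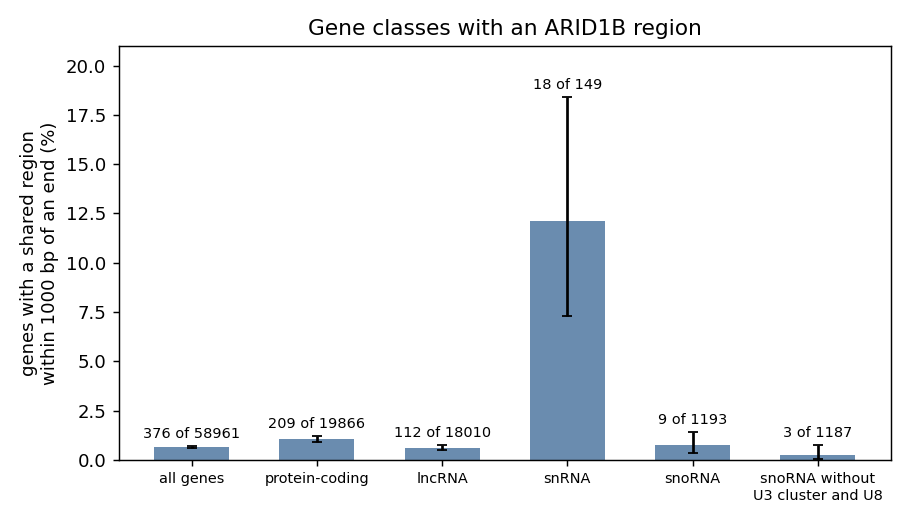
Share of RefSeq genes with a shared ARID1B region within 1000 bp of an end (y axis, percent) by gene class. Bars are shares, error bars exact Clopper-Pearson 95% intervals for counting error, and the numbers above them genes with a region of genes in the class. Small nucleolar RNA genes without the U3 cluster and U8, which were chosen with their peaks known, show 3 of 1187, and snRNA genes 18 of 149.

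By score the nearest counterparts of U8 and of SNORD3A, the U3 copy compared, among 21 shared regions at other snRNA and small nucleolar RNA genes were snRNA genes in all but 1 case, where 18 of the 21 are snRNA genes. Likeness was the distance between percentiles in the 2 lists, a measure over 2 replicates only. For SNORD118, at the 86.1 and 83.5 percentiles, the closest were RNVU1-27, a variant U1 gene (148 and 264; 11.5 percentile points away), RNU7-1, the U7 gene of histone message processing (177 and 286; 11.7), and SNORD59A (13.0). For SNORD3A, at the 59.9 and 84.0 percentiles, they were RNU1-1, a U1 gene (95 and 136; 7.39), RNU11, a minor spliceosome gene (105 and 160; 8.51), and RNU5F-1, a U5 gene (83 and 118; 10.5).

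Genes of the proteins that work with these RNAs were then looked up in 7 lists of 86 genes. A shared region stood at 4 of them, against 1.05% of all protein-coding genes. A replicate 2 peak, shared or not, stood at 5 of them, against 1.8% of all protein-coding genes. The lists were chosen with earlier results of these data known, so nothing is read from these contrasts. Of the 4 core box C/D proteins, NOP56 had a region (chr20:2658651-2659122, scores 30 and 71), 0.258 kb past its 3' end and also near IDH3B. FBL, the gene of the methyltransferase fibrillarin, had a peak in replicate 2 alone (chr19:39833399-39834117, score 60), 0.341 kb past its 3' end and also near DYRK1B. NOP58 and SNU13 had none. No region was found at the 4 U3-specific and Mpp10 genes (RRP9, MPHOSPH10, IMP3 and IMP4), at 15 genes of assembly and transport, at 32 genes of the small-subunit processome, at 14 Integrator subunits, or at GRB2 and GRAP2.

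Of 15 genes for factors of snRNA-type promoters, 3 had a shared region (against 1.05% of all protein-coding genes), each at the 5' end. This list too was chosen with earlier results known, so the contrast is a description and was not tested. SP1, a GC-box-binding factor, had scores of 635 and 848 (chr12:53379473-53380188). SNAPC5, a subunit of the complex that binds the proximal element of these promoters, had scores of 53 and 178 (chr15:66497636-66498100), in a region that also reached RPL4. ZNF143, an activator of snRNA-type promoters, had scores of 37 and 76 (chr11:9460666-9461045).

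The regions covered 263 of the 300 promoter bases of SP1, 284 of those of ZNF143 and all 300 of those of SNAPC5. The promoters of SP1 and ZNF143 are shown because these factors bind DNA themselves and their regions reached no other protein-coding gene. They end 13 and 34 bases past the annotated start, which follows base 250. Capitals mark matches on either strand to the GC box, GGGCGG, and to the CCAAT box, and in SP1 1 match of each kind overlaps the other. Both were taken from RefSeq (GRCh38.p14), at chr12:53379926-53380225 and chr11:9460762-9461061, plus strand.
SP1: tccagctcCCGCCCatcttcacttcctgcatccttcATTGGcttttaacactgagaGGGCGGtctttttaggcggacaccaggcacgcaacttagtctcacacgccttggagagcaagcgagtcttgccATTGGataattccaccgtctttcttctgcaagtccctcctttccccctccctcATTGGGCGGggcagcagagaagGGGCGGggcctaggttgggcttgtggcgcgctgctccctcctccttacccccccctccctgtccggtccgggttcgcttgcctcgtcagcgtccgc
ZNF143: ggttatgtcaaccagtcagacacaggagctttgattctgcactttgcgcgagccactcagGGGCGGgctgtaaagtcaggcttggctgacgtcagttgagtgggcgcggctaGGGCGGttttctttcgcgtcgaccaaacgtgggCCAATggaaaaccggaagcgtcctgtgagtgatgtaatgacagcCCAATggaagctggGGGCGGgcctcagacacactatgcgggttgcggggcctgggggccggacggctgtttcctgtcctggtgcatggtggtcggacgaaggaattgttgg
SP1 held 4 GC boxes and 3 CCAAT boxes, and ZNF143 held 3 and 2. At least 1 GC box was held by 45.0% of the 35116 reference promoters of this length, and at least 1 CCAAT box by 34.6%. Neither promoter held the octamer ATGCAAAT, the start of the proximal element as TCACCNTNA, the ZNF143 core ACTACAA or the AP-1 site TGANTCA, and the SNAPC5 promoter held 1 AP-1 match and none of the others.

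The stretch before U8 that the reference table holds is the start of LOC105371520, at chr17:8173860-8174159 on the plus strand (RefSeq, GRCh38.p14), 232 bp beyond the U8 region on the side of the U8 promoter. It is shown because it holds the only match to the ZNF143 core ACTACAA, in capitals, among the 12 promoters of these stretches.
LOC105371520: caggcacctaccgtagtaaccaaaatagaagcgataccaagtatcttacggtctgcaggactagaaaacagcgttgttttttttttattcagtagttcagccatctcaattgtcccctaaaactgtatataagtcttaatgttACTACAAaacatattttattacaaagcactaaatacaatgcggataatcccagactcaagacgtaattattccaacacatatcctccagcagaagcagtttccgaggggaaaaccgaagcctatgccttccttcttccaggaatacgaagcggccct
The match begins 415 bp before the U8 gene by coordinate and 375 bp outside the region, so no peak covered it. This core was held by 2.77% of reference promoters, the octamer by 1.77% and the proximal element start by 2.69%, and neither of the latter was found in any of the 12. None of the 12 is the promoter of a U3 or U8 gene, so this absence says nothing about those promoters. A match to so few letters is a description of the sequence, not a binding site.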

How the data were processed

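ARID1B ChIP-seq of HEK293FRT cells was available as 1 peak list per replicate. Per the labels' protocols, formaldehyde-fixed chromatin was sonicated and libraries were amplified and size-selected. The submitters' processing notes name MACS2 2.1.2, Bowtie2 2.3.4.1, bcl2fastq 2.20.0.422 and build hg38. The antibody, peak settings, duplicate treatment, placement of multi-mapping reads and use of the input were not given there. Each list deposited by the authors holds a whole-number score per peak, which ranked peaks of that list and served, for shared peaks, as a ratio between lists. Depth is unknown.

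Starts were converted to count from 1. Genes came from a RefSeq table of GRCh38.p14, without strand, of which 58961 genes on main chromosome sequences were kept and 718 on other sequences left out, with 113 mitochondrial or unplaced. Peaks sharing at least 1 bp were joined into regions, and a gene had a region if it lay within 1000 bp of either annotated end. Shares carry exact Clopper-Pearson 95% intervals. No test between samples was possible or made. Overlap and gene assignment were tested on simulated data. Strands of protein-coding genes came from the RefSeq promoter table. Promoter motifs were planned for the U3 and U8 genes, whose promoter sequences were not available. The motifs were read at the genes that the table matched, GRAP and GRAPL among the 8 members.

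Members, stretch and gene lists were chosen with earlier results of these data known. Named were all members, genes of the stretch at a peak, up to 4 genes of each list and 10 other small nucleolar RNA genes with a region, and the 3 regions most alike in percentile. FBL, TMEM107, LOC124903946, LOC105371520 and the repeated neighbours were named after their values were seen. Alternatives were the median score as a threshold, windows of 500 and 5000 bp, centres within 200 bp, 50% reciprocal overlap and each replicate alone; counting the U3 copies once and requiring overlap with the gene were added after the data were seen. Python 3.11.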

Additional observations from a re-analysis of the deposited data

How the results depend on the processing

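Keeping peaks that reached their list's median score left 3 peaks of replicate 1 (5 of replicate 2) and 3 shared regions in the stretch, where SNORD3D and SNORD3C fell below the threshold in replicate 1 only; 60% of the replicate 2 peaks and 100% of the replicate 1 peaks were then shared, and 4 of the 8 member genes and 6 small nucleolar RNA genes had a region. With 50% reciprocal overlap or centres within 200 bp the counts stayed at 5 regions, 6 member genes and 9 small nucleolar RNA genes. The same 6 members, and neither GRAP nor GRAPL, had a region with windows of 500 and 5000 bp and when overlap with the gene was required. At SNORD118 that overlap came from the replicate 1 peak alone. Small nucleolar RNA genes with a region numbered 6 within 500 bp, 48 within 5000 bp, and 9 to 11 with 1 replicate left out in turn, where the members stayed at 6. With the 5 U3 copies counted as 1 gene, 2 member genes and 5 small nucleolar RNA genes had a region. The layout past the 3' end was also seen without any 1 copy, where the stretch common to the remaining 8 peaks was 282 to 327 bp long. The copies may share reads, so leaving 1 out cannot show whether the layout arises separately at each. No paired analysis was possible because the result comes from no test and the replicates belong to 1 group. The lists hold no counts, so no limit from depth could be set.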
